A study of Homo sapiens with 4 samples.

Results

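The mitochondrial ribosomal protein genes are the nuclear genes whose symbols start with MRPL (large subunit) or MRPS (most of them small subunit) and a number. Of 22985 gene symbols in the data, 77 were members by that rule, 51 of the large subunit (with MRPS18A and MRPS30, whose proteins sit there) and 26 of the small subunit, and all 77 passed the filter on low counts. They were compared between 2 human prostate cancer cell lines by total RNA sequencing after removal of ribosomal RNA, with 2 libraries per line. The line LNCaP, first grown from a metastasis in a lymph node, carries the label of primary cancer. The line C4-2, derived from LNCaP, carries the label of castration-resistant cancer. All libraries came from cells in RPMI medium with charcoal-stripped serum, which is depleted of steroids, and no other treatment, gene change or time is labelled. The labels do not say that the libraries of a line were separate cultures, and p-values therefore rest on a spread between libraries that may be technical. The deposited data of each library are stored under the name of the other line. Libraries are therefore called LNCaP-labelled and C4-2-labelled by their titles, and every direction given here would turn round if the stored names were right.

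Mitochondria translate their own small genome with a ribosome of their own, the mitoribosome. Its ribosomal RNAs are made inside the organelle, while its proteins are all encoded in the nucleus, made in the cytosol and imported. It makes membrane subunits of the respiratory chain and of ATP synthase. Some of its proteins have a counterpart in the bacterial ribosome, and others are found in the mitochondrial ribosome but not in the bacterial one.

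Promoters are shown first for the members among the 8 highest and 8 lowest fold changes whose start region held 1 of 3 sequence motifs of factors known to bind promoters of nuclear genes for mitochondria. The motifs were CCGGAAGT (ETS factors such as GABP), GCGC and TGCGC with 1 base of any kind between them (NRF1) and AAGATGGC (YY1), searched on both strands from 250 bases before to 50 bases after the transcript start. MRPS34 lies at chr16:1823111-1823390, minus strand in hg19, MRPS9 at chr2:105654233-105654512, plus strand, MRPS33 at chr7:140714752-140715031, minus strand and MRPL46 at chr15:89010604-89010883, minus strand. Each sequence reads 5′ to 3′ on the strand of the gene, from 250 bases before to 30 bases after the start, and capitals mark the motif match. The first 2 genes were higher and the last 2 lower in the C4-2-labelled libraries.
MRPS34: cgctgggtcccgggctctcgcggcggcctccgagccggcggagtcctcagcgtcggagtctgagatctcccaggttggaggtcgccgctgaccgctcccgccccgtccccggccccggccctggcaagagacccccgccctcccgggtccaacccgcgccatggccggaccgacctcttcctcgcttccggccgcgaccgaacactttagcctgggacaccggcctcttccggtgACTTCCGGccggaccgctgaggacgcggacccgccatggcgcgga
MRPS9: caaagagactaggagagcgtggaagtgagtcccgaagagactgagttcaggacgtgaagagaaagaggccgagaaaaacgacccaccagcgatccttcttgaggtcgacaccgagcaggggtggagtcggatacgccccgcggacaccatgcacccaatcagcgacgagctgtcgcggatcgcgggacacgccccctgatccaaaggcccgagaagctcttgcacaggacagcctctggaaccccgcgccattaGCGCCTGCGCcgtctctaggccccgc
MRPS33: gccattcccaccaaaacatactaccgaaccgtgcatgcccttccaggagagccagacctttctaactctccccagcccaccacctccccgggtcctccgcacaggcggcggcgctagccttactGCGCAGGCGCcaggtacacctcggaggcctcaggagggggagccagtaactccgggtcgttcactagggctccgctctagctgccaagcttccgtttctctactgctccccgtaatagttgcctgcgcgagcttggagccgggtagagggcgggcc
MRPL46: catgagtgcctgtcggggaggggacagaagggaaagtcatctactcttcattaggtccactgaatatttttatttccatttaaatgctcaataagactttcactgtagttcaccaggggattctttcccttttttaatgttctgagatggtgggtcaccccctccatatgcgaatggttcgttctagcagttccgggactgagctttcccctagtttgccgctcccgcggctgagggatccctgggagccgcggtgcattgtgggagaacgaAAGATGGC
The match begins at position -15 in MRPS34 (ETS), 4 in MRPS9 (NRF1), -126 in MRPS33 (NRF1) and 22 in MRPL46 (YY1), where 0 is the first transcribed base. NRF1 matches thus lay in the window of a member that was higher and of one that was lower. Over all members, the ETS motif was found in 10 of 77 windows (13%), beside 6.77% of the windows of the 15975 genes tested. Of these 10 members 4 were called higher, 4 lower and 2 not. The NRF1 motif was found in 9 windows (11.7%), beside 9.59% of all, with 2 members called higher and 5 lower. The YY1 motif was found in 14 windows (18.2%), beside 3.88% of all, with 2 members called higher and 8 lower. Among these, MRPL46 and MRPS11, both called lower, start 51 bases apart, and the match shown for MRPL46 lies in both windows. Over all 77 members 21 were called higher and 41 lower. Over all genes tested 40.2% were called higher and 39.7% lower. A match describes letters in the window and shows no binding, and these shares were not tested.

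The libraries differed in depth. Sense tags of named genes numbered 58.9 and 70.5 M in the LNCaP-labelled libraries and 163.1 and 119.1 M in the C4-2-labelled ones. They made up 31.0% and 35.7% against 67.7% and 69.4% of the library totals behind the deposited RPKM values. This gap separates the lines as the comparison does, and its part in the results cannot be told apart from the cell line. Levels below are CPM (tags per 1e6 sense tags of named genes, after TMM scaling). Of the prostate epithelial markers, 8 of 8 had tags in all libraries, with summed levels of 2594 and 2598 CPM (LNCaP-labelled) and 3385 and 3340 CPM (C4-2-labelled). Summed markers of immune cells reached at most 2.02 CPM, of endothelial cells 4.58 CPM and of fibroblasts 11.1 CPM in any library, each over 4 genes.

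The members held 419401 and 506631 tags in the LNCaP-labelled libraries and 986083 and 717387 in the C4-2-labelled ones. Their summed level was 6981 and 7157 CPM in the former and 6138 and 6081 CPM in the latter. The groups did not overlap, with both C4-2-labelled libraries lower. The least covered member had 1140 tags in a single library, so counting error was small for each member.

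Mitochondrial ribosomal protein genes shifted in both directions, mostly by less than 2-fold, with more of them lower than higher in the C4-2-labelled libraries. With edgeR's quasi-likelihood test and a Benjamini-Hochberg adjusted p under 0.05, 21 members were called higher, 41 lower and 15 did not pass. Of all 15975 genes tested, 80.0% were called (40.2% higher and 39.7% lower), so that the members' total of 62 calls (80.5%) was near the background. The median log2 fold change (C4-2 over LNCaP as labelled) was -0.16 over the members, with quartiles of -0.55 and 0.22, beside -0.01 over all genes tested, with quartiles of -0.72 and 0.57. The members were also less spread, with an SD of log2 fold changes of 0.60 beside 1.56 for all genes. That SD was 0.66 for cytosolic ribosomal protein genes and 0.67 for nuclear-encoded respiratory chain genes. A narrow spread was therefore not particular to the members. A called change of at least 2-fold was seen in 6 members (7.79%), beside 29.8% of all genes tested. The libraries of the 2 lines did not overlap in 69 members (89.6%), beside 89.9% of all genes. In bulk samples, fewer cells that express a gene and less RNA per cell cannot be told apart.

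The numbers of higher and lower members depended on the scaling and on trends with GC content and exon length. After removal of trends of fold change with GC content and exon length over all genes, 29 members were called higher and 27 lower, with a median of -0.0012. Scaling to the library totals behind the deposited RPKM values moved the median of all genes to 1.005 and that of the members to 0.84. Under it 64 members were called higher and 2 lower. Relative to all genes, the members thus stayed slightly lower under that scaling. The members' median minus that of all genes was -0.16 there and -0.15 as reported. It was -0.032 after the GC and length trends were removed.

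**Figure D1:**
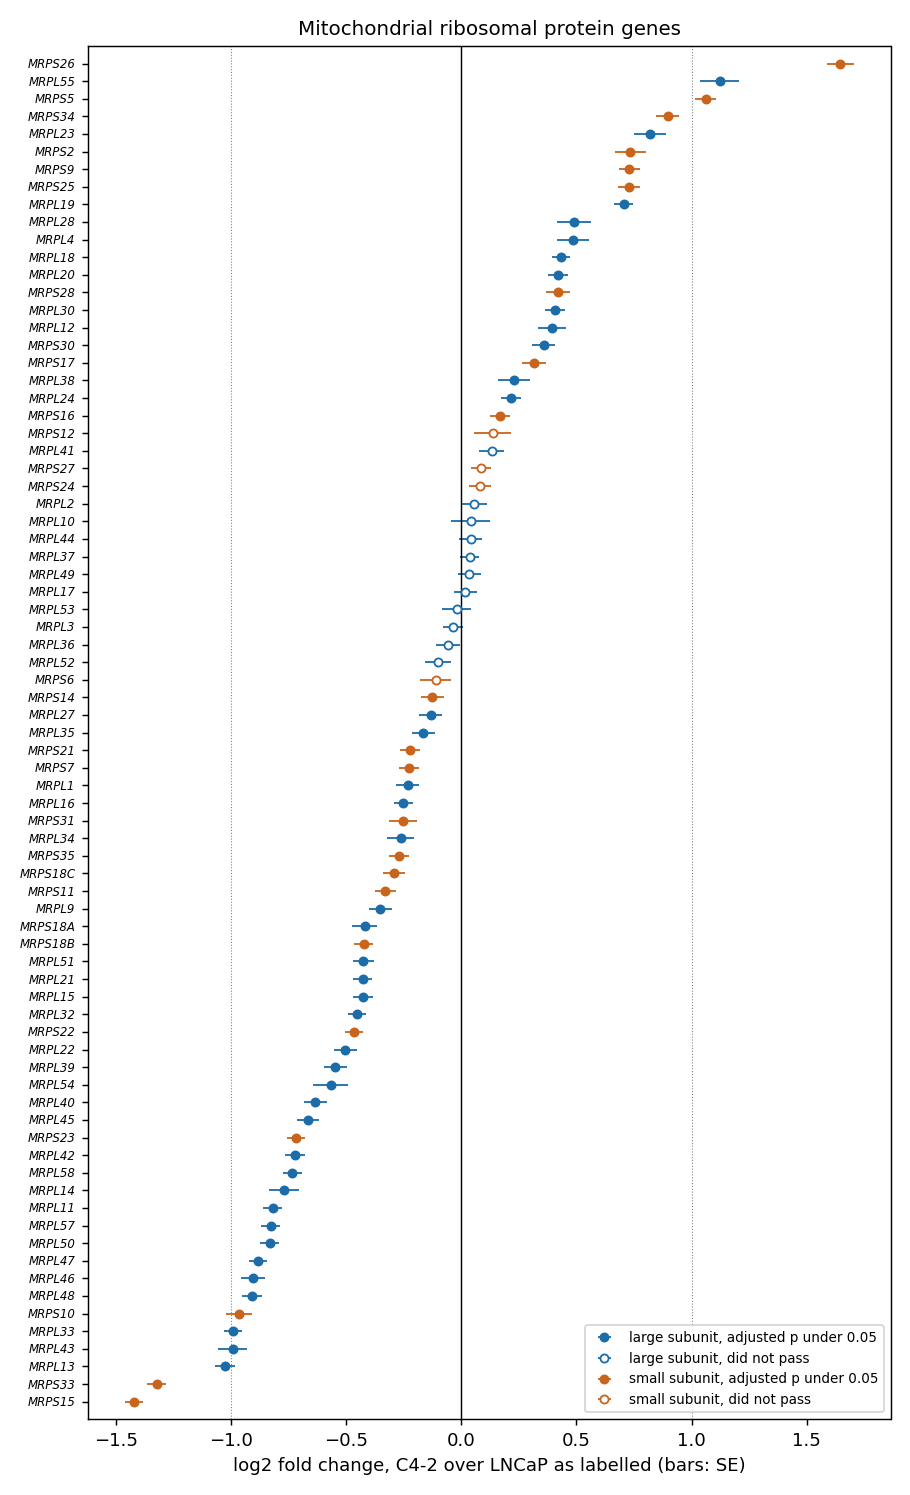
Log2 fold change (C4-2 over LNCaP as labelled, x axis) of the 77 members sorted by value, with bars of 1 standard error. Blue marks the large and orange the small subunit. Filled points had an edgeR adjusted p under 0.05 and dotted lines mark a 2-fold change. Most points lie between the dotted lines, with 3 called members to the right and 3 to the left of them.

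Of the 8 members with the highest fold changes, 6 encode small subunit proteins. MRPS26, a small subunit protein with no bacterial counterpart (chromosome 20, 3026675 to 3028896, plus strand, hg19), had 29.6 and 33.1 CPM in the LNCaP-labelled libraries and 98.0 and 98.5 CPM in the C4-2-labelled ones. Both C4-2-labelled libraries were above both others, and the level was 3.13-fold higher (log2 fold change 1.65 ± 0.059 SE, edgeR adjusted p = 1.20e-07). MRPL55, a large subunit protein (chromosome 1, 228294380 to 228297013, minus strand), had 19.0 and 22.8 CPM against 46.6 and 44.4 CPM. The groups did not overlap, and the level was 2.18-fold higher in the C4-2-labelled libraries (log2 fold change 1.12 ± 0.085 SE, edgeR adjusted p = 5.68e-06). MRPS5, the counterpart of bacterial S5 (chromosome 2, 95752952 to 95787754, minus strand), had 39.1 and 39.4 CPM against 80.3 and 83.6 CPM. It was 2.09-fold higher without overlap between the lines (log2 fold change 1.06 ± 0.047 SE, edgeR adjusted p = 3.00e-07), and its exons overlap another gene on the same strand.

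The other 5 of these 8 members rose by less than 2-fold. MRPS34, a small subunit protein with no bacterial counterpart and with the ETS match shown above, had 52.8 and 54.1 CPM in the LNCaP-labelled libraries and 102.8 and 96.0 CPM in the C4-2-labelled ones (log2 fold change 0.90). MRPL23, whose bacterial counterpart lies at the exit of the peptide tunnel, had 45.1 and 52.4 CPM against 87.4 and 84.4 CPM (log2 fold change 0.82). In both genes the lines were clearly separate. MRPS2, the counterpart of bacterial S2, had 38.6 and 42.9 CPM against 70.9 and 64.8 CPM (log2 fold change 0.73). MRPS9, the counterpart of bacterial S9, had 42.8 and 43.5 CPM against 71.2 and 71.9 CPM (log2 fold change 0.73). MRPS25, a small subunit protein with no bacterial counterpart whose exons overlap a noncoding gene on the same strand, had 46.0 and 47.6 CPM against 79.0 and 76.2 CPM (log2 fold change 0.73). The lines did not overlap in any of the 3 genes. Adjusted p from edgeR for these 5 members lay between 8.37e-07 (MRPS34) and 1.97e-05 (MRPS2).

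The lowest fold changes came from 2 of the most abundant members. MRPS15, the counterpart of bacterial S15 (chromosome 1, 36921362 to 36930040, minus strand), had 329.2 and 331.1 CPM in the LNCaP-labelled libraries and 122.8 and 123.7 CPM in the C4-2-labelled ones. The libraries of each line lay close together, and the level was 2.68-fold lower in the C4-2-labelled ones (log2 fold change -1.42 ± 0.041 SE, edgeR adjusted p = 4.55e-08). MRPS33, a small subunit protein with no bacterial counterpart (chromosome 7, 140705961 to 140714781, minus strand), had 263.8 and 260.2 CPM against 104.2 and 105.3 CPM. It was 2.5-fold lower, again with no overlap (log2 fold change -1.32 ± 0.042 SE, edgeR adjusted p = 7.08e-08). MRPL13, the counterpart of bacterial L13 (chromosome 8, 121408083 to 121457647, minus strand), had 115.6 and 122.2 CPM against 57.6 and 59.2 CPM. It was 2.04-fold lower with no overlap (log2 fold change -1.03 ± 0.045 SE, edgeR adjusted p = 2.95e-07).

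A further 5 members fell by just under 2-fold. MRPL43, a large subunit protein with no bacterial counterpart, had 49.8 and 50.9 CPM in the LNCaP-labelled libraries and 26.5 and 24.1 CPM in the C4-2-labelled ones (log2 fold change -0.99). MRPL33, the counterpart of bacterial L33, had 135.5 and 136.3 CPM against 67.2 and 69.6 CPM (log2 fold change -0.99). Each C4-2-labelled library was below both others in these genes. MRPS10, the counterpart of bacterial S10, had 87.9 and 82.7 CPM against 41.9 and 45.5 CPM (log2 fold change -0.97). MRPL48, a large subunit protein, had 78.4 and 78.1 CPM against 41.4 and 42.0 CPM (log2 fold change -0.91). MRPL46, a large subunit protein with no bacterial counterpart and with the YY1 match shown above, had 51.2 and 49.9 CPM against 26.8 and 27.2 CPM (log2 fold change -0.90). The lines did not overlap in these 3 genes either, and edgeR's adjusted p for the 5 lay between 1.98e-07 (MRPL33) and 1.84e-06 (MRPL43). MRPL33 shares a stretch of 326 bases at 100% identity with a transcript of another gene, BABAM2. MRPS10 has a near-identical stretch in a transcript of another gene. The genome position of these stretches was not examined. MRPL46 shares exon bases with another gene on its strand. The values of MRPL33, MRPS10 and MRPL46 are therefore uncertain.

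All 16 members kept their direction after removal of the trends with GC content and exon length. There the 8 highest ranged from 0.47 (MRPS2) to 1.52 (MRPS26) and the 8 lowest from -1.23 (MRPS15) to -0.36 (MRPL33) on the log2 scale. When scaled to the library totals, MRPS15 and MRPS33 were still called lower (-0.42 and -0.32 on the log2 scale) and 11 of the 16 kept their direction.

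**Figure D2:**
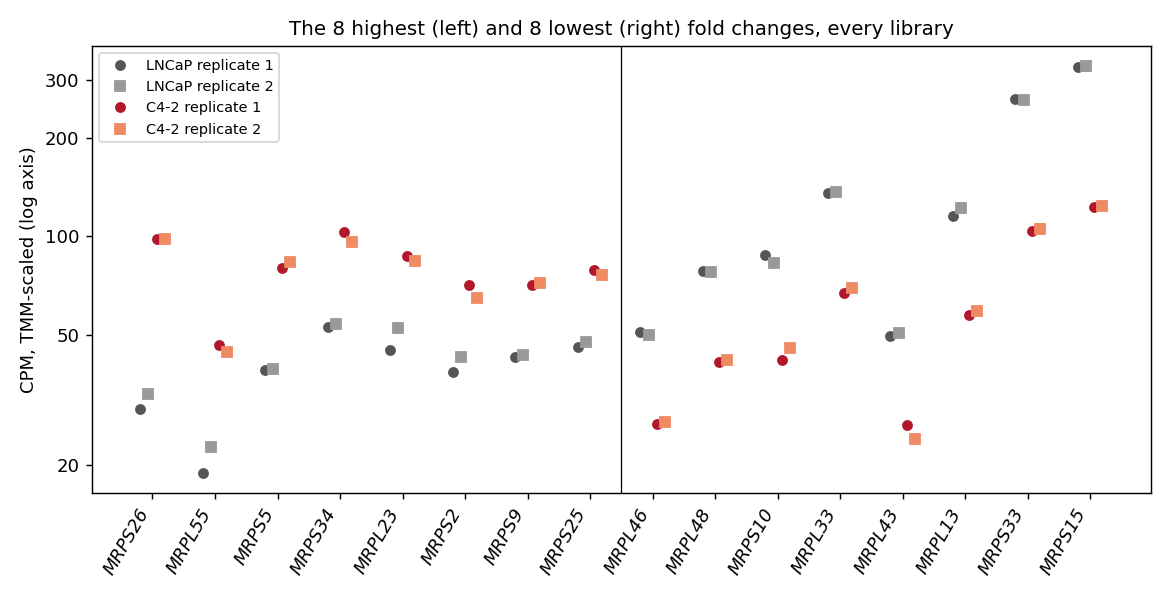
Level (CPM, log axis) of the 8 members with the highest and the 8 with the lowest log2 fold change in each of the 4 libraries. In every one of these 16 genes the LNCaP-labelled libraries and the C4-2-labelled ones form separate groups, with MRPS15 at 329.2 and 331.1 CPM in the former and 122.8 and 123.7 CPM in the latter.

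Large and small subunit genes were spread over both directions. Of the 51 large subunit members 12 were called higher, 28 lower and 11 failed the test, and the median log2 fold change was -0.23. Of the 26 small subunit members 9 were called higher, 13 lower and 4 failed the test, and the median was -0.12. Both medians lay below that of all genes tested, of which 40.2% were called higher and 39.7% lower. The difference between the subunits was not tested. After removal of the trends with GC content and exon length, 14 large subunit members were higher and 20 lower, and 15 small subunit members were higher and 7 lower.

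The members were also split by whether the standard naming of mitoribosome proteins gives them a bacterial counterpart. Of the 46 members with a bacterial counterpart 16 were called higher and 22 lower, with a median of -0.08. Of the 31 members without one, 5 were higher and 19 lower, with a median of -0.42. After the GC and length trends were removed, the members with a bacterial counterpart turned to 23 higher and 13 lower (median 0.12), and the others had 6 higher and 14 lower (median -0.07). Among the 21 large subunit members without a bacterial counterpart, 2 were higher and 13 lower, with a median of -0.55. After that correction 2 of them were higher and 11 lower, with a median of -0.14. The 10 small subunit members without one had 3 higher and 6 lower (median -0.26). After correction these had 4 higher and 3 lower (median 0.045). Of all genes tested, 40.2% were called higher and 39.7% lower before correction. These differences in medians are descriptions and were not tested.

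MRPS18A, MRPS18B and MRPS18C are paralogues related to bacterial S18. MRPS18A sits in the large subunit, and the standard naming counts it and MRPS18B among the proteins without a bacterial counterpart. MRPS18A had 44.5 ± 0.812 CPM (SD, n = 2) in the LNCaP-labelled libraries and 33.2 ± 1.36 CPM in the C4-2-labelled ones. MRPS18B had 113.4 and 118.9 CPM against 87.7 and 85.4 CPM. MRPS18C had 57.1 and 55.6 CPM against 46.0 and 46.1 CPM. All 3 paralogues fell without overlap between the lines, by log2 fold changes of -0.42, -0.42 and -0.29, with edgeR adjusted p of 0.000156, 3.03e-05 and 0.000629. MRPS18C has a near-identical copy, and its value is uncertain. Its log2 fold change turned to 0.39, thus higher, after the GC and length trends were removed.

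Levels per length were compared as CPM per kb of exon. In the LNCaP-labelled libraries the highest were MRPS33 (380.8 ± 3.67 CPM per kb, SD, n = 2), MRPS15 (342.1 ± 1.40), MRPL33 (262.4 ± 1.10) and MRPL51 (261.7 ± 10.4), a large subunit protein. MRPL33 and MRPL51 did not differ beyond their spread. In the C4-2-labelled libraries these 4 had 152.2, 127.7, 132.1 and 194.8 CPM per kb, and the highest there was MRPL20, the counterpart of bacterial L20, which rose from 169.0 ± 2.61 to 226.2 ± 1.69 CPM per kb (SD, n = 2). The order at the top thus changed between the lines, with MRPS33 moving from rank 1 to 3 and MRPL20 from 5 to 1. The 4 lowest members by the mean of both lines were MRPL19, MRPS25, MRPL22 and MRPS31. MRPL19, the counterpart of bacterial L19, had 9.50 ± 0.289 CPM per kb (SD, n = 2) in the LNCaP-labelled libraries and 15.5 ± 0.0105 in the C4-2-labelled ones. MRPS25 had 10.3 and 17.0, MRPL22, the counterpart of bacterial L22, had 16.6 and 11.7, and MRPS31, a small subunit protein, had 21.1 and 17.7 CPM per kb. MRPS31 ranked 70 of 77 in the LNCaP-labelled libraries and 74 in the C4-2-labelled ones. MRPL19 and MRPS25 share exon bases with another gene on the same strand, so their levels are uncertain.

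Members that did not pass the test were MRPS6, MRPS12, MRPS24, MRPS27, MRPL2, MRPL3, MRPL10, MRPL17, MRPL36, MRPL37, MRPL41, MRPL44, MRPL49, MRPL52 and MRPL53. MRPL3, the counterpart of bacterial L3, had 224.6 and 234.4 CPM in the LNCaP-labelled libraries and 222.9 and 225.3 CPM in the C4-2-labelled ones. MRPS27 had 196.9 and 206.6 CPM against 213.8 and 214.4 CPM. MRPS27 is a small subunit protein with no bacterial counterpart. In MRPL3 the lines overlapped. In MRPS27 they did not, yet edgeR's adjusted p was above the threshold. Leaving out LNCaP replicate 2 brought MRPS27 past it (log2 fold change 0.12, edgeR adjusted p = 0.00674). MRPL41 had an edgeR adjusted p of 0.0524 and passed without LNCaP replicate 2 (edgeR adjusted p = 0.000692) or C4-2 replicate 2 (0.0288). The other members that gained a call with a library left out were MRPS12, MRPS6 and MRPL10 without LNCaP replicate 2 and MRPL52 without LNCaP replicate 1. MRPS12 then had a log2 fold change of 0.28 in place of 0.14 (edgeR adjusted p = 1.03e-05). MRPS6 then had -0.17 in place of -0.11 (edgeR adjusted p = 0.0124), MRPL10 0.14 in place of 0.04 (0.0498) and MRPL52 -0.17 in place of -0.10 (0.0111).

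A further 7 members lay near the threshold on its other side and lost their call when a library was left out. MRPS14 (log2 fold change -0.13, edgeR adjusted p = 0.0446) lost its call without any 1 of the 4 libraries, with log2 fold changes from -0.14 to -0.09 and adjusted p from 0.0704 to 0.369. MRPL27 (-0.13) lost it without LNCaP replicate 2 and without either C4-2 replicate, with log2 fold changes from -0.14 to -0.08 and edgeR adjusted p from 0.163 to 0.263. MRPL35 (-0.16) lost it without LNCaP replicate 1 and without either C4-2 replicate, with log2 fold changes from -0.17 to -0.10 and edgeR adjusted p from 0.0609 to 0.140. Without C4-2 replicate 1, MRPL38 (0.23) and MRPL1 (-0.23) had log2 fold changes of 0.19 and -0.18 and edgeR adjusted p of 0.0835 and 0.0582. Without C4-2 replicate 2, MRPS16 (0.17) and MRPL34 (-0.26) had log2 fold changes of 0.16 and -0.19 and edgeR adjusted p of 0.0783 and 0.0561.

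Members of high GC content were mostly higher and members of low GC content mostly lower. Of the 11 members with a GC content of at least 60%, 8 were called higher and 2 lower, with a median log2 fold change of 0.49. Of the 24 members under 45%, 5 were higher and 17 lower, with a median of -0.28. All genes tested showed the same order, with 1235 of 2215 higher at 60% or more (median 0.38) and 1717 of 5159 higher under 45% (median -0.15). Across the 77 members, Pearson's r between log2 fold change and GC content was 0.36 and Spearman's rho 0.35, as a description over genes, which are not independent and share the same 4 libraries. Over 14348 genes of known GC content r was 0.12 and rho 0.22. The members' transcripts were short, with a median exon length of 1180 bases beside 2767 for all genes, and with exon length r was 0.16. The median GC content was 60.9% in the 8 members with the highest fold changes and 44.9% in the 8 with the lowest. The part of GC content in the direction of single members was not tested beyond the corrected values given above. GC content was read from the annotated transcript closest in length to the one counted. The lengths could differ, as in MRPL50 (3336 bases against 1021 counted) and MRPS23 (706 against 1492).

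**Figure D3:**
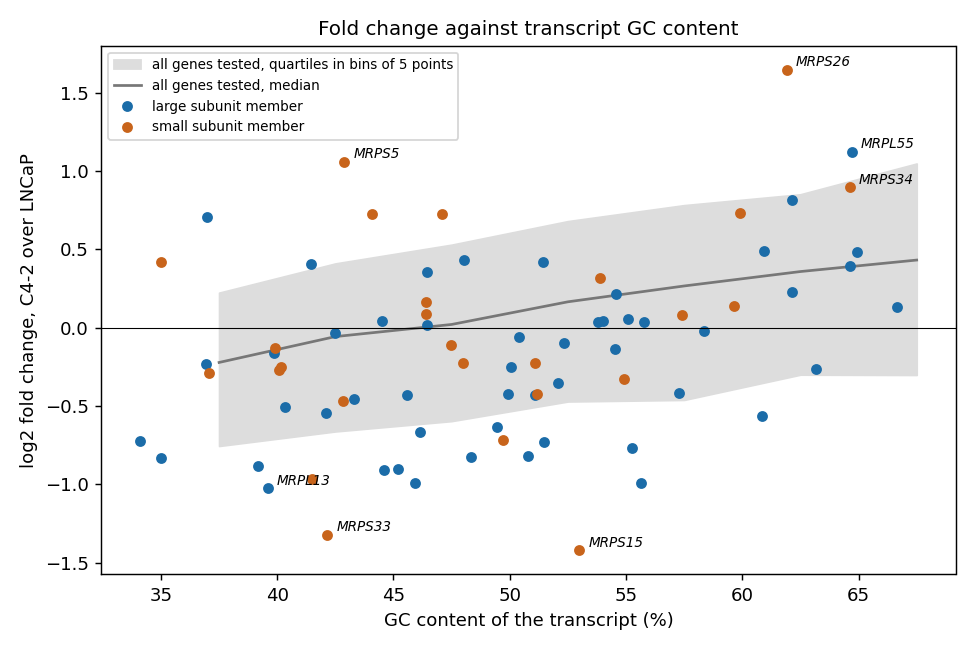
Log2 fold change of the 77 members (y axis) against transcript GC content (x axis, percent). GC content is that of the annotated transcript closest in length to the one counted. A grey band gives the quartiles and a line the median of all genes tested in bins of GC content. Members at 60% GC or more sit mostly above 0, and the median of all genes also rises with GC content.

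Many members start beside another gene on the opposite strand. Of the 77 members, 25 (32.5%) had another gene starting within 1000 bases in the head-to-head direction, beside 13.1% of all genes tested. These 25 members formed 24 distinct pairs. Both genes were called in 14 pairs, of which 9 (64.3%) moved in the same direction and 5 in opposite directions. Among all genes tested, 409 of 649 such pairs (63.0%) moved in the same direction, so the members' share was near the background. MRPL46 and MRPS11, both members, start 51 bases apart and both fell (log2 fold changes -0.90 and -0.33). MRPL47 and NDUFB5, a complex I subunit gene, start 141 bases apart and both fell (log2 fold changes -0.88 and -1.65). MRPL18 and the chaperonin gene TCP1, 757 bases apart, both rose (0.43 and 0.87). MRPL43 and TWNK, the helicase of mitochondrial DNA replication, start 21 bases apart and moved in opposite directions (-0.99 and 1.39). MRPL30 and MITD1, 50 bases apart, also moved apart (0.41 and -0.56), and MRPL30 shares exon bases with other genes on its strand. A short distance between starts therefore went with shared and with opposite directions. These pairs were named after their values were seen.

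The symbol MRPS36 is now KGD4 in RefSeq, since the protein is counted with a dehydrogenase complex of the citric acid cycle, and it is not a member. KGD4 had 51.9 and 50.9 CPM in the LNCaP-labelled libraries and 33.5 and 32.1 CPM in the C4-2-labelled ones, a fall without overlap (log2 fold change -0.65 ± 0.052 SE, edgeR adjusted p = 7.95e-06).

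The mitoribosome also holds 5 proteins whose genes have no MRP symbol. DAP3, a GTP-binding small subunit protein, had 103.9 and 106.0 CPM in the LNCaP-labelled libraries and 162.6 and 156.8 CPM in the C4-2-labelled ones (log2 fold change 0.61). AURKAIP1, a small subunit protein, had 72.5 and 85.5 CPM against 122.4 and 116.1 CPM (0.59), and GADD45GIP1, a large subunit protein, had 46.9 and 48.0 CPM against 60.4 and 55.3 CPM (0.29). All 3 rose without overlap. CHCHD1, a small subunit protein, had 69.3 ± 0.733 CPM (SD, n = 2) against 60.3 ± 0.397 CPM, and its call as lower (-0.20, edgeR adjusted p = 0.0026) was lost without C4-2 replicate 1 (edgeR adjusted p = 0.0545) and turned to 0.23 after the GC and length trends were removed. PTCD3, a small subunit protein, did not pass (218.5 and 216.1 CPM against 214.3 and 216.0 CPM).

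Among genes that build and serve the mitoribosome, higher calls outnumbered lower ones in 3 of 4 lists. Of all genes tested, 80.0% were called, 40.2% higher and 39.7% lower, and the counts below are to be read beside these shares. Of 26 assembly factors 15 were called higher and 5 lower, with a median log2 fold change of 0.38 and extremes of 1.17 for the ribosomal RNA methyltransferase gene MRM2 and -0.44 for MALSU1, a factor of large subunit assembly. Of 17 translation factors 10 were higher and 5 lower (median 0.47), from GUF1 at 1.25 to the release factor gene MTRF1 at -1.52. Of 20 genes that charge mitochondrial tRNAs 15 were higher and 3 lower (median 0.41), with the highest value, 1.16, for EARS2, which charges the tRNA for glutamate. Of 10 genes for mitochondrial DNA upkeep and transcription 5 were higher and 5 lower (median 0.16), from TWNK at 1.39 to MTERF1, a transcription termination factor, at -1.56. The 81 respiratory chain genes tested had 15 higher and 56 lower and a median of -0.63. The 82 cytosolic ribosomal protein genes tested had 28 higher and 46 lower with a median of -0.26. These differences between lists are descriptions and were not tested. After the GC and length trends were removed, the medians were 0.27 for assembly factors, 0.47 for translation factors, 0.19 for tRNA charging, -0.23 for respiratory chain genes and 0.02 for cytosolic ribosomal proteins.

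**Figure D4:**
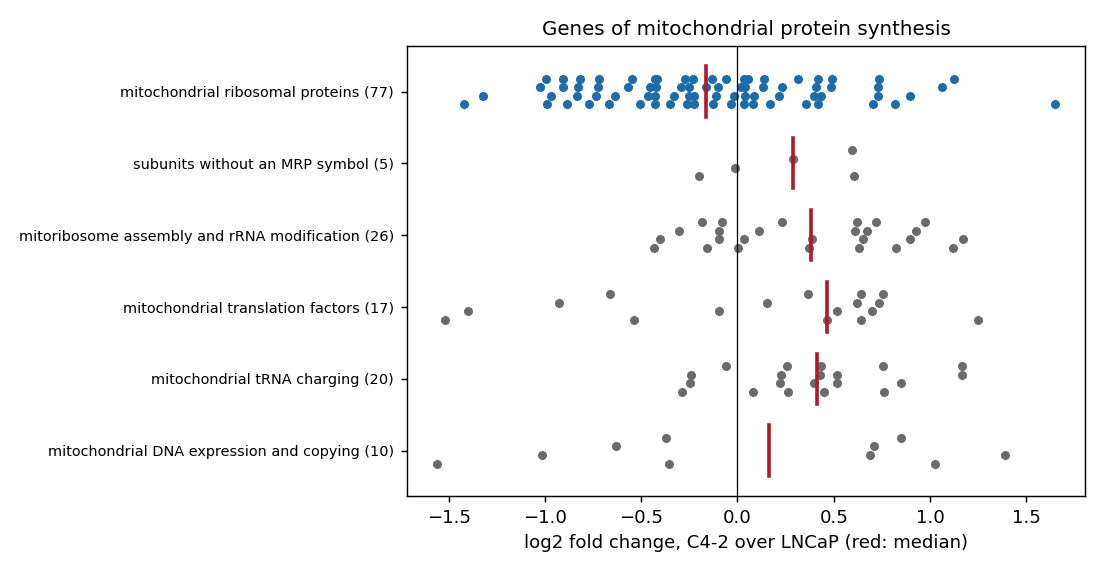
Log2 fold change (C4-2 over LNCaP as labelled, x axis) of each gene in lists of mitochondrial gene expression, 1 row of points per list, with a red mark at the median. The rows are the members, subunits without an MRP symbol, assembly factors, translation factors, tRNA charging, and mitochondrial DNA upkeep and transcription. The members' median of -0.16 lies below those of the assembly (0.38) and translation factors (0.47).

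Genes for factors that act on nuclear genes for mitochondria did not move together. Of 9 such genes 4 were called higher and 4 lower, a split near that of all genes tested (40.2% higher and 39.7% lower). NRF1 and GABPA, the DNA-binding subunit of GABP, were both lower (log2 fold change -0.53 each). PPARGC1A, the coactivator PGC-1α, had 181 and 175 tags in the LNCaP-labelled libraries and 12 and 20 in the C4-2-labelled ones (log2 fold change -4.54, -5.16 without C4-2 replicate 2), whereas PPARGC1B did not pass (-0.17). ESRRA, a nuclear receptor that works with these coactivators, was higher (0.98), as were PPRC1 (0.63) and MYC (0.89). GABPB1 was called lower (-0.18), and the call ended without C4-2 replicate 1 (-0.11, edgeR adjusted p = 0.273). YY1 was called higher (0.17), and the call ended without C4-2 replicate 2 (0.15, edgeR adjusted p = 0.0715). Transcript levels do not show the activity of these factors.

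**Figure D5:**
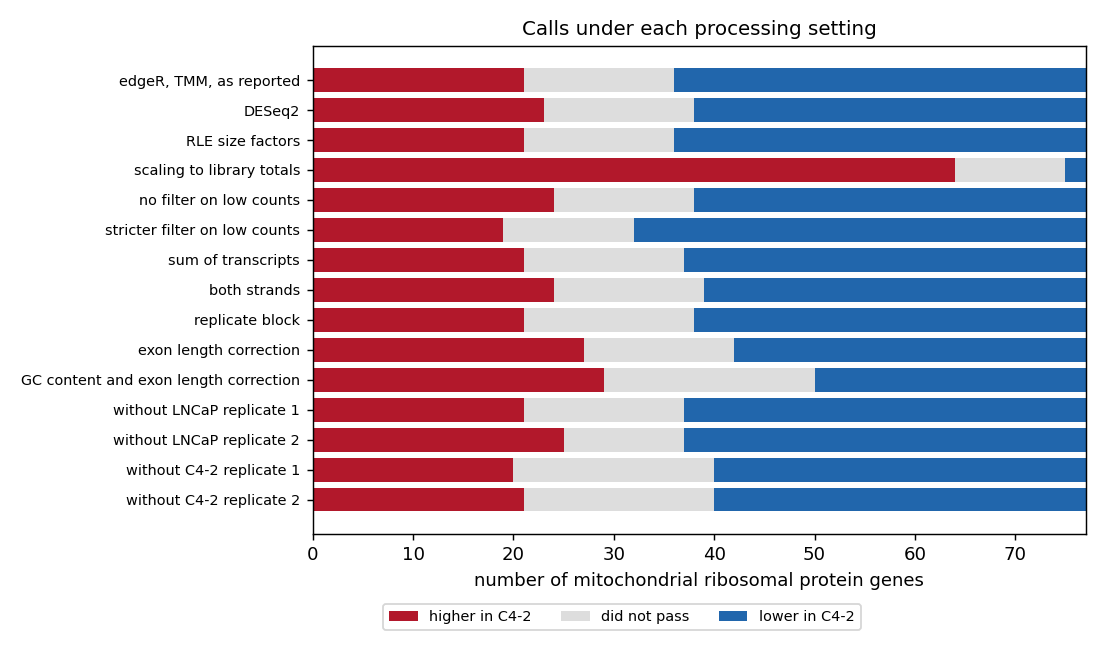
Number of members (of 77) called higher, lower or not passing the test under each setting, as stacked bars. The reported setting gives 21 higher and 41 lower, the GC and length correction 29 and 27, and scaling to library totals 64 and 2.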

How the data were processed

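Total RNA of 4 libraries was compared, 2 per cell line, grouped by sample title. Per the submitters' processing notes, the authors aligned reads with TopHat2 2.0.6 and Bowtie to hg19. Per the file headers, the authors deposited, strand by strand, a tag count with its RPKM for 41351 RefSeq transcript entries. Counting tool and annotation version: not given in the sources used here. RPKM values served only to recover the library totals. A RefSeq table of GRCh38.p14 gave symbols to 38974 of 40304 accessions, and for each symbol the transcript with the most sense tags was kept. Tags without a symbol (2.06% to 2.15%) were left out.

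Counts were tested with edgeR 4.0.16 (quasi-likelihood, TMM, its filter on low counts) in R 4.3.3, with no term but the cell line and Benjamini-Hochberg adjustment over 15975 genes. The script was tested on simulated data. Standard errors are the absolute log2 fold change over the root of F. Promoters were read from the GRCh37 genome. GC content and overlaps came from the GENCODE transcript of the same symbol closest in length to the one counted. Near-identical copies (at least 97% over 100 bases) were sought with BLAST 2.17.0 in GENCODE transcripts of other genes. Members that share same-strand exon bases or have such a copy numbered 19.

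Other settings were DESeq2 1.42.0, other scalings, filters, transcripts and strands, a replicate block, each library left out, and a trend in exon length. The trend in GC content and length was added after seeing the data. Members and lists were chosen with earlier results of these data known. The text names the called members with the 8 highest and 8 lowest fold changes and 100 tags or more, the 4 highest and 4 lowest levels per kb, the MRPS18 paralogues, MRPS36, the 5 other subunits, all regulators and the extremes of each list, and other genes were named after their values were seen. A gene that meets this rule is not reported here. The labels name no batch. Replicates differed by more than counting noise (chi-square per degree of freedom 25.6 for LNCaP and 12.7 for C4-2).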

Additional observations from a re-analysis of the deposited data

How the results depend on the processing

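The medians and counts are relative to the scaling. The median log2 fold change of the members was -0.14 with DESeq2, -0.12 without a filter on low counts, -0.25 with a stricter filter, -0.22 for the sum of transcripts, -0.12 for both strands, -0.051 after the length correction, -0.0012 after the GC and length correction and 0.84 under library totals, and -0.18 to -0.16 with a library left out. Lower calls numbered 27 after the GC and length correction, and library totals gave 64 higher and 2 lower. In all genes the share of calls that were higher was 87.5% under library totals and 50.3% as reported. Replicate numbers did not pair the libraries (correlation of deviations -0.032), and with them as a block 21 members were higher and 39 lower. Of the 21 higher members 18 kept their call in every setting, and of the 41 lower members 2 did, or 24 leaving aside library totals.

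Under library totals the sign turned for MRPL43 (0.010), MRPL33 (0.015), MRPS10 (0.044), MRPL48 (0.098), MRPL46 (0.10), MRPL51 (0.58), MRPL22 (0.50), MRPS31 (0.76), MRPS18A (0.59), MRPS18B (0.58), MRPS18C (0.72), KGD4 (0.36), CHCHD1 (0.80), PTCD3 (0.99), NRF1 (0.47), GABPA (0.48), GABPB1 (0.82), PPARGC1B (0.83) and MALSU1 (0.57), and MRPL13 lost its call (-0.022). After the GC and length correction it turned for CHCHD1 (0.23; 0.081 for length alone), MRPS31 (0.23), MRPS18C (0.39) and GABPB1 (0.016). PTCD3, which did not pass, was at 0.0051 with DESeq2, 0.027 without a filter, 0.019 for both strands and between -0.020 and 0.00044 with a library left out. The cause was not tested. With 2 libraries per line, changes of small size could not be settled.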

Other observations

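Tags on the strand opposite to a member were 0.449% and 0.411% of its tags in sum in the LNCaP-labelled libraries and 0.385% and 0.407% in the C4-2-labelled ones. In 7 members the share passed 1.5% in at least 1 line. In the LNCaP-labelled and then the C4-2-labelled libraries it was 5.67% and 3.68% for MRPS25, 4.16% and 3.69% for MRPS18C, 3.11% and 0.795% for MRPS34, and 2.92% and 2.82% for MRPL57. It was 2.54% and 3.01% for MRPL10, 1.61% and 1.03% for MRPL19, and 0.930% and 1.63% for MRPS7.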
